A study of Carassius auratus with 9 samples.

Results

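Back skin of yellow celestial goldfish was compared with back skin of white celestial goldfish across all genes with measurable RNA. Celestial goldfish are an ornamental breed of Carassius auratus with upturned eyes. The comparison used the 3 yellow and 3 white libraries, 6 of the 9 in the series, and the other 3, from brown fish, entered only to estimate the spread between replicates. All fish were 4 months old, and the labels name no mutation, treatment or sex. Each library was RNA-seq of total RNA from the skin of the back, with 15095776 to 16917243 reads on genes in the 6 libraries. FPKM, the deposited unit, is reads or fragments scaled by gene length and a denominator for each library. Of 74297 annotated rows, 25364 reached 1 FPKM in at least 3 of the 6 libraries and were tested. The labels number the libraries of a color as biological replicates and do not say whether the fish came from separate broods.

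Fish skin takes its color from pigment cells in the dermis. Xanthophores are yellow to orange and store carotenoids and pteridines, melanophores make melanin in melanosomes, and iridophores hold reflecting purine crystals. Carotenoids are fat-soluble and are kept in lipid droplets or related vesicles, which form at the endoplasmic reticulum with the help of seipin, are filled with neutral lipid by acyltransferases such as DGAT2, and are coated by perilipins. Goldfish descend from an ancestor with a duplicated genome, so most genes are annotated in several copies, and near-identical copies may share reads, which makes the level of a single copy uncertain.

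The 2 colors differed in few genes beyond the spread between replicates. Limma called 9 genes higher in yellow (0.0355% of those tested) and 3 lower (0.0118%), 0.0473% in all, at a Benjamini-Hochberg adjusted p under 0.05, two-sided, on log2(FPKM + 1). Before adjustment, p was under 0.05 for 636 genes higher in yellow (2.51%) and 258 lower (1.02%). Limma-voom on the recovered reads made 0 calls, with 799 genes below that p before adjustment. The median difference over all tested genes was -0.03 on the log2 scale, with the middle of the distribution between -0.27 (lower quartile) and 0.23 (upper quartile), and the median standard error was 0.39. The called genes had differences of 2.00 to 5.85 in size. All 3 yellow libraries lay above all 3 white libraries for 1283 genes (5.06%) and below them for 1156 (4.56%). Large differences were less even. Of 640 genes more than 1 log2 unit higher in yellow, 402 had libraries that did not overlap, against 80 of the 605 genes more than 1 unit lower. The largest difference without a call was that of LOC113099663, a pseudogene without a product name at 82.2 to 190.7 FPKM in white and 0.54 to 1.03 in yellow. Its log2 difference was -6.13 ± 1.54 (SE), with a limma adjusted p of 0.781. The white and yellow libraries did not overlap, and this SE also pools the spread among the 3 brown libraries. The gene is named here because its value stood out.

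**Figure D1:**
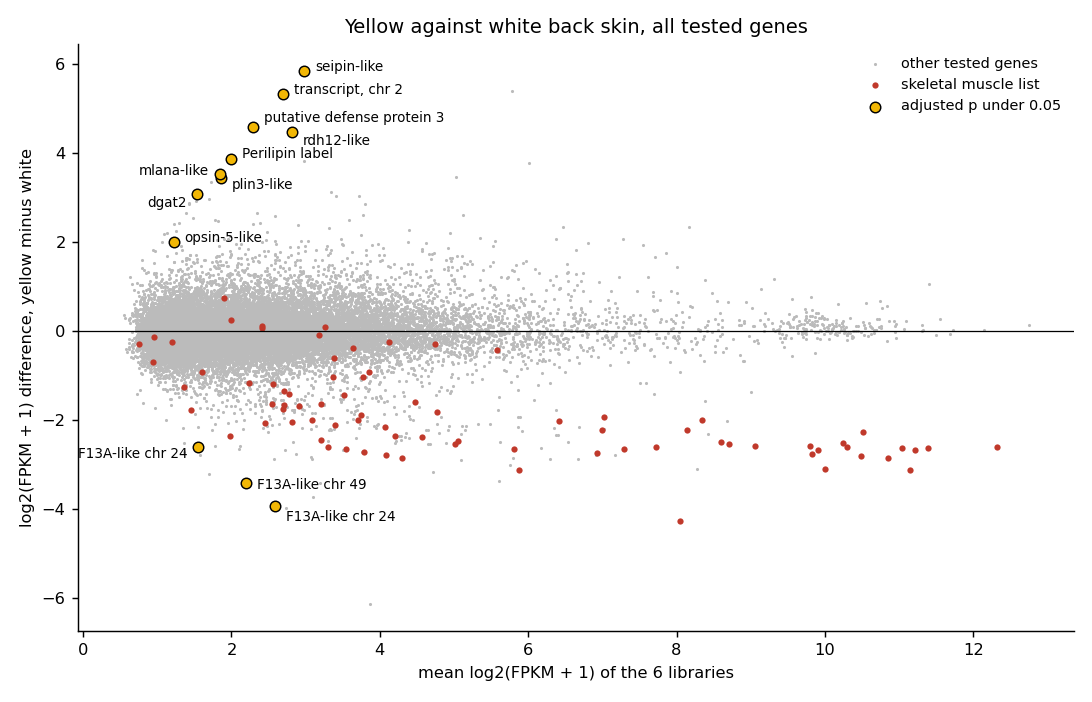
Difference between yellow and white skin, in log2(FPKM + 1), against the mean log2(FPKM + 1) of the 6 libraries for each of the 25364 tested genes; red points are skeletal muscle list members and large points the 12 called genes. The called genes lie at low to middle levels with differences of at least 2.00, while the red muscle points form a band with a median of -2.04.

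Fewer cells of a type and less RNA per cell cannot be told apart in these bulk libraries, and muscle RNA varied widely. Skeletal muscle markers made up 2.06%, 11.6% and 32.9% of the reads of white 1, 2 and 3. In yellow 1, 2 and 3 they made up 0.211%, 0.764% and 26.2%. Both libraries numbered 3 were therefore the richest in muscle RNA. The first principal component of the 6 log2 profiles held 61.6% of the variance and did not follow color. White 1, 2 and 3 were at -65.7, 3.38 and 90.7 on it, and yellow 1, 2 and 3 at -71.3, -72.0 and 115. The second held 19.8%, and on it the white libraries were at 3.63, 77.2 and 28.6 and the yellow libraries at -37.7, -15.7 and -56.0. Correlations between profiles were 0.709 to 0.948 within a color and 0.703 to 0.932 between colors. Skin markers were present in all 6, with the keratinocyte list at 0.962% to 5.67% of reads in white and 0.982% to 4.56% in yellow. Without the 3 libraries numbered 3, limma called 5 genes higher and 0 lower, all among the 12.

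Among the 9 genes that rose were 3 with known roles at lipid droplets, in droplet formation (seipin), triglyceride synthesis (dgat2) and droplet coating (perilipin-3). They were 3 of the 32 tested members of the lipid droplet and triglyceride list, of which 0 fell, where 0.0355% of all tested genes rose and 0.0118% fell. All 3 were below 1 FPKM in every white library. They passed the filter through yellow alone, which fixed in advance that yellow lay above white without overlap. Without a filter, 2 of 52 list members were called. The lists, this one included, were chosen with earlier results of these data known, so such counts are not independent of the calls. A seipin-like gene (LOC113045120, chromosome 27, 3480392 to 3485304) had 0, 0.0316 and 0.101 FPKM in white 1, 2 and 3, whereas yellow 1, 2 and 3 had 52.6, 51.3 and 76.1. White skin was at or near 0 throughout, and yellow 3 was the highest library. The log2 difference was 5.85 ± 0.49 (SE; limma adjusted p = 0.00465), the largest of the called genes. A further seipin-like copy on chromosome 14 (LOC113113763) had 1.29, 2.42 and 4.25 FPKM in white and 23.4, 22.6 and 45.4 in yellow. Those groups did not overlap either, but its difference of 3.12 ± 0.66 did not pass (limma adjusted p = 0.518). The remaining tested copy (LOC113038522), at 1.57 ± 0.301 FPKM in white and 1.36 ± 0.0905 in yellow (SD, n = 3), overlapped between the colors. LOC113045120 was not called without white 2 (adjusted p = 0.0537) or without the 3 libraries numbered 3 (0.0636).

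Perilipins coat the droplet and regulate access of lipases to it. A perilipin-3-like gene (LOC113059134, chromosome 41, 17859669 to 17869636) had 0.0186, 0.139 and 0.148 FPKM in white and 12.7, 13.4 and 7.57 in yellow, with a log2 difference of 3.44 ± 0.34 (limma adjusted p = 0.00853). An uncharacterized gene, LOC113116617 (chromosome 16, 25888917 to 25902870), carries the protein family label Perilipin in the deposited files and had 0.0153, 0.114 and 0.0304 FPKM in white and 18.6, 16.9 and 9 in yellow (log2 difference 3.85 ± 0.34, limma adjusted p = 0.00468). In both genes every yellow library stood far above every white one, and yellow 3 was the lowest of the yellow libraries. The label is on 8 genes, of which 6 were tested and 2 called, both higher in yellow, where 0.0355% of all tested genes were. This grouping was made after the values were seen. Like LOC113059134, LOC113116617 was below 1 FPKM in every white library and passed the filter through yellow alone. That fixed in advance that the colors did not overlap. A perilipin-2-like copy (LOC113058336) had 2.08, 4.58 and 3.52 FPKM in white and 7.83, 8.23 and 22.5 in yellow, which did not overlap and did not pass (log2 difference 1.54 ± 0.69, limma adjusted p = 1). The second perilipin-3-like copy (LOC113069893) overlapped, at 3.92 ± 1.57 and 5.1 ± 2.8 FPKM. The call of LOC113059134 was lost without white 1 (adjusted p = 0.0696), white 2 (0.0865), white 3 (0.0708) or yellow 1 (0.0537), with TPM (0.0784) and with a filter at 5 FPKM (0.0756), and that of LOC113116617 without white 2 (0.0537).

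DGAT2 joins a fatty acid to diacylglycerol to make triglyceride. Its copy on chromosome 35 (LOC113054403, 11827513 to 11837386) had no read in any white library and 9.87, 5.22 and 8.02 FPKM in yellow, with a log2 difference of 3.08 ± 0.33 (limma adjusted p = 0.0141). White skin nonetheless had dgat2 RNA from another copy. LOC113109920 on chromosome 10 was at 3.94, 23.9 and 42.7 FPKM in white and 12.9, 6.32 and 37.7 in yellow. It overlapped between the colors and was highest in the libraries numbered 3. Over all 5 annotated copies the white libraries held 24.2 ± 18.6 FPKM and the yellow 28.2 ± 16.8 (SD, n = 3). The call of LOC113054403 was lost with the replicate number as a block (adjusted p = 0.0658) and without brown 1 (0.0501), white 1 (0.0866), white 2 (0.115), white 3 (0.107), yellow 1 (0.0829) or yellow 3 (0.0531), without the 3 libraries numbered 3 (0.201), without a filter (0.0958) and with a filter at 5 FPKM (0.72).

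Over the whole lipid droplet and triglyceride list the colors were not shifted. Its 32 members that passed the filter, of 56 annotated, had a median difference of -0.01, beside -0.03 for all genes, with 7 members whose yellow libraries all lay above white and 4 below (5.06% and 4.56% of all genes). The higher ones outside the genes already given were perilipin 2 (plin2) and sterol O-acyltransferase 1-like LOC113076346, which makes cholesterol esters, at 1.79 ± 0.861 FPKM in white and 4.3 ± 0.473 in yellow. The 4 lower ones did not pass. They were 2-acylglycerol O-acyltransferase 1-like LOC113041680 (15.8, 28.7 and 24.4 FPKM in white, 8.48, 3.98 and 11.4 in yellow), the triglyceride lipase pnpla2 (LOC113042895), hormone-sensitive lipase-like LOC113059067, which releases stored fatty acids, and phosphatidate phosphatase LPIN1-like LOC113120657. Hormone-sensitive lipase-like LOC113059067 was at 5.15, 12.2 and 7.25 FPKM in white and 1.85, 3.39 and 4.52 in yellow. Adipocyte markers moved beside these genes. The summed FPKM of the 13 annotated adipocyte genes was 121.3 to 291.1 in white and 77.4 to 227.0 in yellow, all 8 tested members were lower on average in yellow with overlapping libraries, and their part in the lipid results was not tested.

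**Figure D2:**
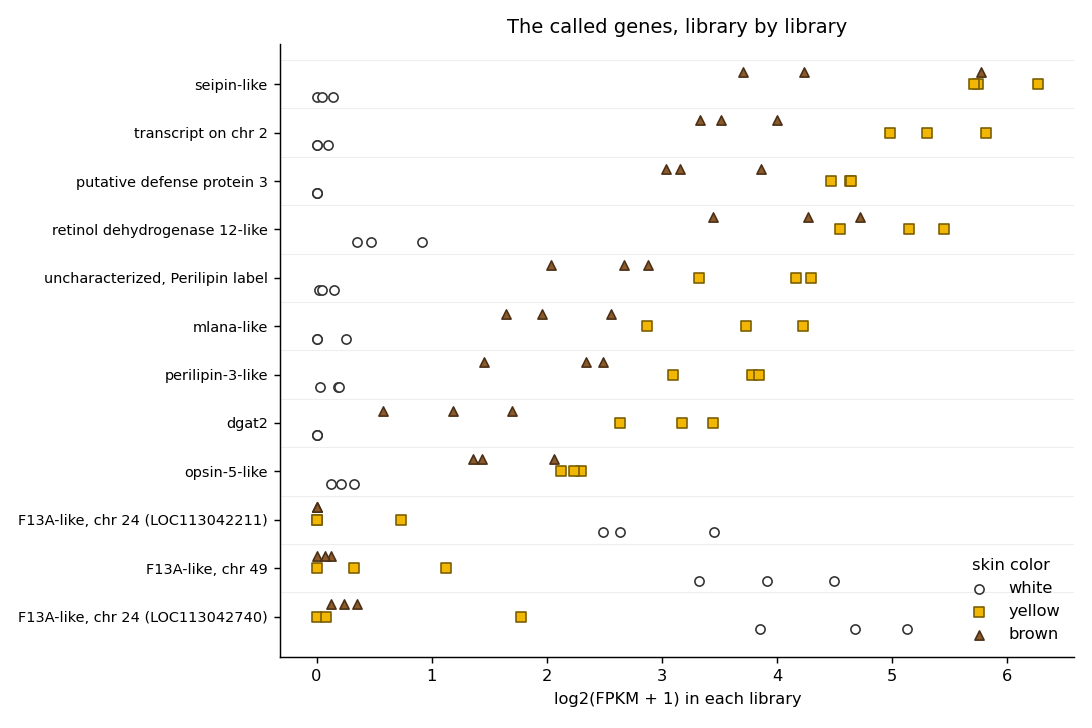
Level of each of the 12 called genes, in log2(FPKM + 1), in the 3 white (open circles), 3 yellow (squares) and 3 brown (triangles) libraries. White libraries sit at or near 0 for the 9 genes that rose, and for the 3 factor XIII A copies (F13A) it is the yellow and brown libraries that lie near 0.

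Retinoid enzymes were the other metabolic group with a called gene. Retinol dehydrogenases interconvert retinol and retinal, which is also the product of carotene cleavage. The retinol dehydrogenase 12-like gene LOC113042262 (chromosome 24, 10404792 to 10407468) had 0.275, 0.385 and 0.89 FPKM in white and 34.4, 42.6 and 22.4 in yellow, a log2 difference of 4.47 ± 0.40 (limma adjusted p = 0.00511). Its neighbour LOC113042263, a copy that starts 200 bases downstream on the same strand, had 0.0614, 0.102 and 0.122 FPKM in white and 3.04, 1.62 and 12.2 in yellow. The colors did not overlap in either gene, but the neighbour's libraries were ordered differently, with yellow 3 the highest, and its difference of 2.25 ± 0.66 did not pass (limma adjusted p = 1). Retinol dehydrogenase 7-like LOC113060382 on chromosome 42 had 0.0135, 0.0505 and 0 FPKM in white and 3.66, 3.12 and 7.11 in yellow (log2 difference 2.40 ± 0.37, limma adjusted p = 0.153). A copy on chromosome 34 (LOC113052949) lay the other way, at 6.97 ± 2.84 FPKM in white and 3.88 ± 0.628 in yellow. In LOC113042262, LOC113042263 and LOC113060382 white lay below 1 FPKM in every library. They passed the filter through yellow alone, which fixed in advance that the colors did not overlap. Over all 10 annotated retinol dehydrogenase 12 genes the white mean was 9.19 ± 2.46 FPKM and the yellow mean 45.3 ± 5.56. Among all 56 tested retinoid genes 1 rose and 0 fell (0.0355% and 0.0118% of all genes), 7 lay above white and 2 below without overlap (5.06% and 4.56% of all genes), and the median was -0.03. LOC113042262 was not called without white 2 (adjusted p = 0.0675).

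Of the genes of melanosomes, 1 copy of mlana, a melanosome protein also called melanoma antigen recognized by T-cells 1, rose. This copy, LOC113081155 (unplaced sequence, 144941 to 148752), had 0, 0.197 and 0 FPKM in white and 17.7, 6.31 and 12.3 in yellow (log2 difference 3.52 ± 0.38, limma adjusted p = 0.0141). The other annotated copy, LOC113079820, had 0, 0.0702 and 0 FPKM in white and 8.02, 2.91 and 15.4 in yellow (3.03 ± 0.48, limma adjusted p = 0.172). In both copies yellow 2 was the lowest yellow library. Summed over the copies, mlana was at 0, 0.267 and 0 FPKM in white and 25.7, 9.22 and 27.7 in yellow. This sum passed the same test across product families (log2 difference 4.20 ± 0.42, limma adjusted p = 0.0118). It holds the called copy and is not independent of that call. Both copies and their sum were below 1 FPKM in every white library and passed the filter through yellow alone. That fixed in advance that the colors did not overlap. The call of LOC113081155 was lost with the replicate block (adjusted p = 0.0755), with the 6 libraries alone (0.0912), and without brown 3 (0.0573), white 1 (0.0866), white 2 (0.115), white 3 (0.109), yellow 1 (0.0537), yellow 3 (0.0531) or the 3 libraries numbered 3 (0.436), without a filter (0.0945) and with a filter at 5 FPKM (0.0937). LOC113079820 was called without yellow 2 (0.0281).

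Of the 14 tested members of the melanin synthesis and melanosome list, 1 rose and 0 fell, and 9 lay above white without overlap, where 5.06% of all genes did. Their mean log2(FPKM + 1) was 1.00, 1.22 and 0.98 in white 1, 2 and 3, whereas yellow 1, 2 and 3 had 2.55, 2.14 and 2.32, and the median difference was 1.06. Without the libraries numbered 3 the median was 0.91. Several of these members passed the filter through the yellow libraries alone, and without a filter the median over 45 members was 0.16, with 0 called; with a filter at 5 FPKM it was 0.74 over 4 members. The uncalled members above white were the melanosome matrix gene pmel (LOC113069261), with 0, 0.18 and 0 FPKM in white and 8.67, 2.91 and 3.93 in yellow, and the melanosome receptor gpr143, with 0.15, 0.776 and 0.198 in white and 1.63, 1.05 and 2.66 in yellow. Melanophilin, which links melanosomes to their motor, had a copy (LOC113096918) with 0.108, 0.323 and 0.0646 FPKM in white and 3.75, 3.61 and 12.7 in yellow. Yellow 3 stood out there, and the copy did not pass (limma adjusted p = 0.77). The ion channel gene trpm1 had 5.43 ± 3.06 FPKM in white and 14.7 ± 3.83 in yellow at LOC113043413. A second trpm1 copy, a second melanophilin copy and rab38 made up the rest of the 9. The list holds genes that pigment cells other than melanophores can also express, and in brown skin it had a mean log2 level of 1.65 to 2.13.

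The enzymes of melanin synthesis themselves were low in both colors, as sums over annotated copies, which were not tested. The tyrosinase gene tyr was at 0.285, 0.297 and 0.424 FPKM in white and 3.16, 1.2 and 1.42 in yellow. The gene tyrp1 was at 0, 0.053 and 0.0529 in white and 0.229, 0.186 and 0.29 in yellow, and at 1.9 to 11.2 in brown. Both lay above white in every yellow library, but tyrp1 in yellow was far below its level in brown. The genes dct, at 0.0128 ± 0.0222 FPKM in white and 0.0274 ± 0.0238 in yellow, and oca2, at 0.0149 ± 0.0257 and 0.00766 ± 0.0133, rested on 2 and 4 reads for dct and 4 and 2 for oca2 over the 3 libraries of white and yellow. The receptor gene mc1r, which switches melanocytes between pigments in mammals, was at 0.195, 0.607 and 0 FPKM in white. In yellow it was at 4.01, 5.41 and 0.871, with yellow 3 nearest to white 2. The transporter gene slc45a2 was at 0.285, 0.214 and 0.248 in white and 0.811, 0.453 and 4.04 in yellow.

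**Figure D3:**
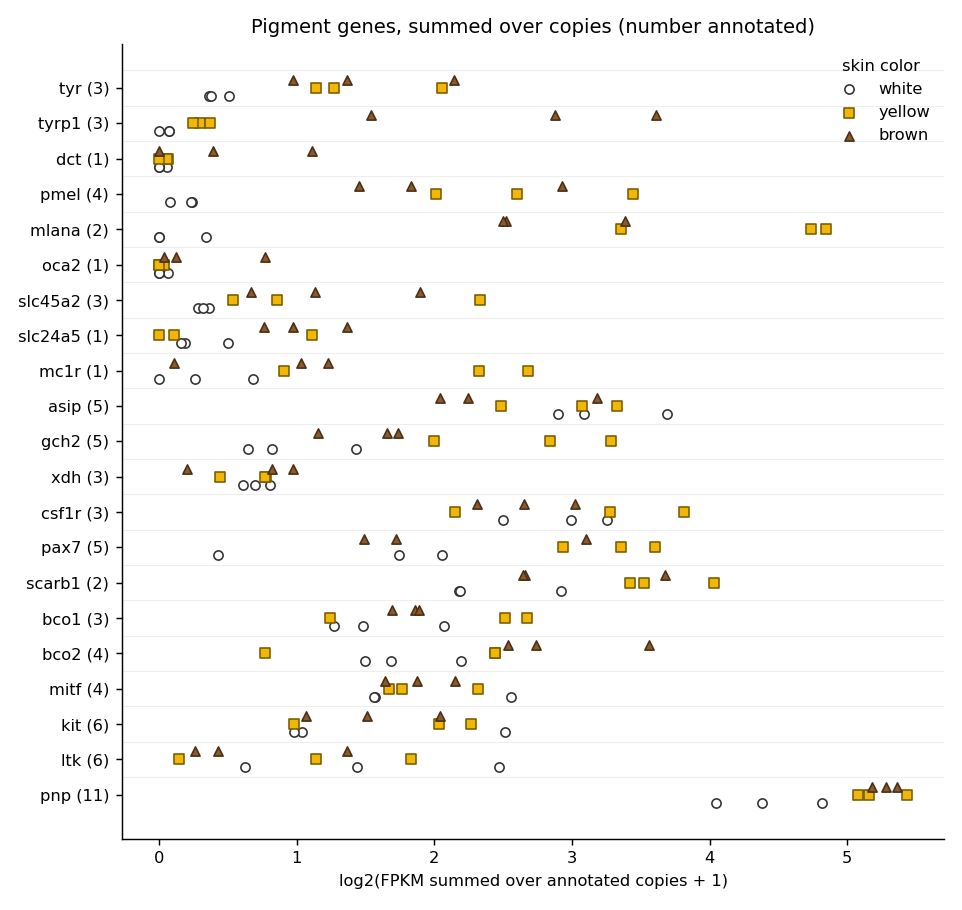
Pigment genes as log2 of FPKM summed over annotated copies (number in brackets) plus 1, in each white (circles), yellow (squares) and brown (triangles) library. Yellow lies above white without overlap for tyr, tyrp1, pmel, mlana, slc45a2, mc1r, gch2, pax7, scarb1 and pnp, and the colors overlap for the other genes.

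Genes of yellow pigment cells were higher in yellow at single copies rather than across their pathways. Pteridine synthesis starts with GTP cyclohydrolase. The copy LOC113056131 on chromosome 37 had 0.0231, 0.0287 and 0 FPKM in white and 6.67, 4.1 and 1.61 in yellow (log2 difference 2.20 ± 0.38, limma adjusted p = 0.259), and was called without yellow 3 (0.0425). Pax7 is a transcription factor that zebrafish and medaka need to make xanthophores. Its copy LOC113068849 had 0.0346, 0.688 and 0.756 FPKM in white and 6.14, 5.62 and 10.4 in yellow (2.48 ± 0.45, limma adjusted p = 0.259). In both genes white lay below 1 FPKM in every library. They passed the filter through yellow alone, which fixed in advance that the colors did not overlap. Of 15 tested members of the pteridine and xanthophore list these were the only ones with non-overlapping colors, where 5.06% of all genes lay above white. In this list 0 passed, and the median was 0.10, or -0.03 without the libraries numbered 3. Xanthine dehydrogenase, xdh, at 0.631 ± 0.111 and 0.592 ± 0.204 FPKM, and the xanthophore receptor csf1r, at 6.72 ± 1.95 and 8.39 ± 4.82, overlapped between the colors.

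Carotenoid genes showed a similar picture. Scavenger receptor class B member 1, which takes up carotenoids, is the only tested member above white in all yellow libraries. Its copy LOC113110322 had 3.43, 6.5 and 3.52 FPKM in white and 9.66, 10.3 and 15.4 in yellow, a log2 difference of 1.24 ± 0.38 that did not pass (limma adjusted p = 1). The cleavage enzymes overlapped as sums over copies. Beta-carotene 15,15'-dioxygenase (bco1) was at 2.14 ± 0.941 FPKM in white and 3.81 ± 2.15 in yellow, and bco2, which cleaves at another bond, at 2.54 ± 0.92 and 3.19 ± 2.16. The lutein-binding family member STARD3 N-terminal-like (LOC113118222) lay below white, at 6.31 ± 1.03 against 3.39 ± 0.695 FPKM. None of the 10 tested carotenoid genes passed, and the median was 0.13. Of these, 1 lay above white and 1 below without overlap (5.06% and 4.56% of all genes). Glucose transporter 11-like LOC113072589, of a family with a member needed in medaka for xanthophore and leucophore pigment, had no read in white and 5.39, 4.12 and 1.83 FPKM in yellow (2.18 ± 0.34, limma adjusted p = 0.153). It was called without yellow 3 (0.0425).

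Regulators and iridophore genes held 0 called members. Of 18 tested pigment cell regulators, 13 were higher in yellow on average, with a median of 0.26 (0.12 without white 2 and 0.50 without yellow 3). In this list 2 lay above white and 0 below without overlap (5.06% and 4.56% of all genes). Transcription factor AP-2-epsilon (LOC113062305), which acts in zebrafish melanophores, had 0.0595, 0.0185 and 0.0592 FPKM in white and 2.49, 1.93 and 6.04 in yellow (1.99 ± 0.57, limma adjusted p = 1). The receptor gene erbB-3-like LOC113068944 had 9.02, 1.92 and 10.8 FPKM in white and 16.3, 18.1 and 12.9 in yellow, so only white 2 stood well apart. AP-2-epsilon was below 1 FPKM in every white library and passed the filter through yellow alone, which fixed its separation in advance. The sums for mitf (2.93 ± 1.68 and 2.86 ± 0.987 FPKM), kit (2.25 ± 2.14 and 2.63 ± 1.48) and asip (8.63 ± 2.89 and 7.02 ± 2.24) overlapped. Among 29 purine synthesis and iridophore genes the median was -0.05. Purine nucleoside phosphorylase-like LOC113045188 was the 1 gene above white (5.06% of all genes), at 1.68 ± 0.697 and 4.49 ± 1.98 FPKM. Purine nucleoside phosphorylase summed over 11 copies was at 19.8, 15.6 and 27.2 FPKM in white and 34.8, 42.3 and 32.8 in yellow. Of 7 thyroid hormone genes 0 passed and all overlapped.

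Putative defense protein 3 and a transcript on chromosome 2 had the smallest p-values. Putative defense protein 3 (LOC113094292, unplaced sequence, 60766 to 62666), of a family of secreted proteins first described in insect immunity, had no read in any white library and 21.2, 23.8 and 23.9 FPKM in yellow. The yellow libraries differed little, and brown lay between, at 7.18 to 13.5 FPKM. The log2 difference was 4.58 ± 0.29 (limma adjusted p = 0.000462). The unannotated chromosome 2 transcript (25874338 to 25878146, minus strand) had 0.0742, 0 and 0 FPKM in white and 55.1, 38.5 and 30.5 in yellow, a log2 difference of 5.33 ± 0.32 (limma adjusted p = 0.000462). No product is annotated for it. LOC113094292 and this transcript were called in 20 of 21 alternative analyses, the exception being voom (adjusted p = 0.916), with adjusted p-values of at most 0.00977 when any 1 library was left out. Both were below 1 FPKM in every white library and passed the filter through yellow alone, which fixed in advance that the colors did not overlap. The sum over the 3 copies of putative defense protein 3 passed across product families (log2 difference 4.46 ± 0.27, limma adjusted p = 0.000254). That sum is nearly the called gene again. In yellow LOC113094292 had a mean of 23.0 FPKM and the sum 23.1, so it is not separate support.

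An opsin-5-like gene was the last of the called rises. Opsin 5 is a light-sensitive receptor found outside the image-forming eye as well as in it. LOC113098145 (unplaced sequence, 110637 to 122486) had 0.251, 0.156 and 0.0935 FPKM in white and 3.36, 3.91 and 3.71 in yellow (log2 difference 2.00 ± 0.25, limma adjusted p = 0.0409). The only other tested opsin, opsin-5-like LOC113062843 on chromosome 45, had 0.088, 0.192 and 0.241 FPKM in white and 1.14, 1.26 and 1.28 in yellow, and did not pass (0.92 ± 0.30, limma adjusted p = 1). Both genes were separated by color with little spread among the yellow libraries. They passed the filter through the yellow libraries alone, which fixed that separation in advance. Of 71 annotated opsin genes these 2 reached the filter. LOC113098145 was called without brown 2 (adjusted p = 0.0217) and not without any other single library (0.0985 without brown 3, 0.115 without brown 1, 0.123 without yellow 3, 0.21 without white 1, 0.247 without yellow 1 or yellow 2, 0.294 without white 2 and 0.31 without white 3), nor with the replicate block (0.119). Its adjusted p was 0.479 with TPM, 0.0709 with the muscle covariate, 0.202 without a filter and 0.0971 with the 6 libraries alone.

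In each of the 9 genes that rose, all 3 brown libraries lay above all 3 white libraries. The brown mean was between the white and yellow means in all 9, and in 7 of them all brown libraries lay below all yellow ones. The exceptions were the seipin-like gene LOC113045120, where brown 2 reached 53.6 FPKM, and the retinol dehydrogenase 12-like gene LOC113042262, where brown 2 reached 25.4. Each of the 9 was below 1 FPKM in every white library, and brown entered the spread estimate behind the calls. The share of all tested genes with these orders was not counted. Brown was not tested against either color here.

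The 3 genes that fell in yellow were all copies of the coagulation factor XIII A chain, a transglutaminase that crosslinks fibrin and that macrophages and some connective tissue cells also make. LOC113042740 (chromosome 24, 7353191 to 7366546) had 13.4, 24.5 and 34.1 FPKM in white and 2.43, 0 and 0.0603 in yellow (log2 difference -3.93 ± 0.50, limma adjusted p = 0.0409). LOC113042211, 31929 bases further on, had 4.6, 5.21 and 9.91 in white and 0.667, 0 and 0 in yellow (-2.61 ± 0.32, limma adjusted p = 0.04). LOC113066051 (chromosome 49, 3572535 to 3585956) had 8.97, 14 and 21.5 in white and 1.18, 0 and 0.255 in yellow (-3.42 ± 0.37, limma adjusted p = 0.0141). In each, yellow 1 was the highest yellow library and white 3 the highest white one, and the groups were far apart. The copies LOC113065965 on chromosome 49 (4.59 ± 1.7 and 0.241 ± 0.418 FPKM, limma adjusted p = 0.0944) and LOC113042741 on chromosome 24 (1.71 ± 0.338 and 0.0766 ± 0.117, limma adjusted p = 0.259) had the same order of libraries between colors without passing. In brown all 5 of these copies were near 0, with means of 0 to 0.182 FPKM. LOC113042211, LOC113065965 and LOC113042741 were below 1 FPKM in every yellow library and passed the filter through white alone. That fixed in advance that their colors did not overlap.

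The most abundant factor XIII A copies did not follow the others. LOC113105860 on chromosome 7 had 47.4, 85.2 and 32.7 FPKM in white and 61.8, 63.1 and 30 in yellow, and LOC113079139 had 12.3, 23.9 and 5.84 in white and 14.8, 16.6 and 6 in yellow. Both overlapped, with differences of -0.06 ± 0.49 and -0.07 ± 0.57. The 8 copies together held 120.8 ± 34 FPKM in white and 65.9 ± 25.7 in yellow, and the sum did not pass (log2 difference -0.92 ± 0.41, limma adjusted p = 1). The calls were not stable to the choice of library. LOC113066051 was not called without brown 1 (adjusted p = 0.0501), brown 3 (0.0583), white 2 (0.115), white 3 (0.0799), yellow 2 (0.0711) or yellow 3 (0.0561), LOC113042211 without any 1 library (0.0541 to 0.208), and LOC113042740 without any 1 library (0.0707 to 0.294) but yellow 1 (0.0118). With the replicate block the adjusted p was 0.0658 for LOC113066051, 0.119 for LOC113042211 and 0.137 for LOC113042740, and with a pseudocount of 0.1 it was 0.185, 0.515 and 0.237 in the same order. None of the 3 was called without a filter (0.0958, 0.193 and 0.198) or with the 6 libraries alone (0.172, 0.22 and 0.258), and with the muscle covariate LOC113042211 (0.0668) and LOC113042740 (0.068) were not called.

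Other transglutaminases lay on the opposite side. Transglutaminase K, the crosslinking enzyme of the outer epidermis in mammals, had a copy (LOC113040942, chromosome 23) with 0.398, 0.144 and 1.12 FPKM in white and 4.69, 12.9 and 6.23 in yellow (log2 difference 2.47 ± 0.41, limma adjusted p = 0.213). A transglutaminase 5-like copy (LOC113089140) had 9.47, 1.32 and 4.73 FPKM in white and 49.6, 96.7 and 9.64 in yellow, with yellow 3 close to white 1. A transglutaminase 2-like copy (LOC113102464) had 8.87 ± 3.48 in white and 30.6 ± 16 in yellow. Of the 15 tested transglutaminase genes, 0 rose and 3 fell (0.0355% and 0.0118% of all genes), 3 lay above white and 5 below without overlap (5.06% and 4.56%), and the median was -0.06. All 5 below were factor XIII A copies. Among them LOC113042211, LOC113065965 and LOC113042741 passed the filter through white alone, so their colors could not overlap.

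**Figure D4:**
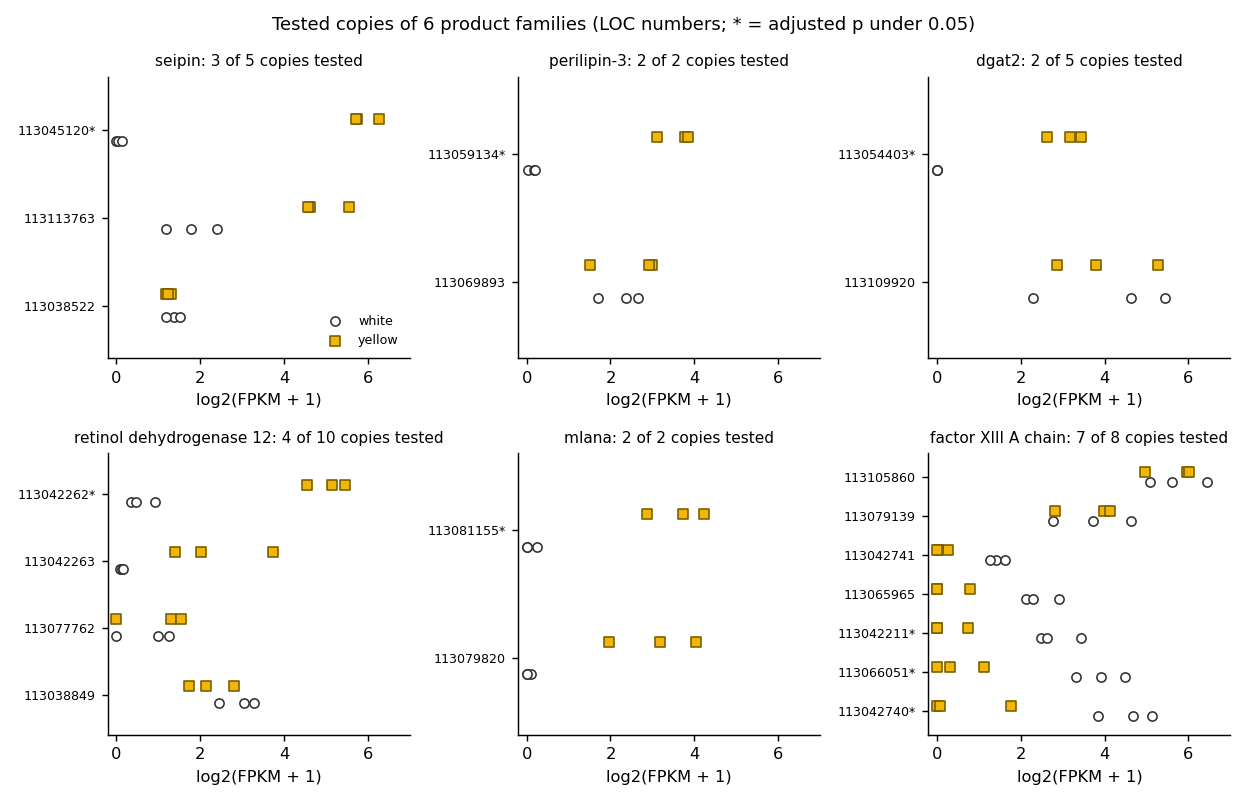
Tested copies of 6 product families, each row 1 copy, in log2(FPKM + 1) for the 3 white (circles) and 3 yellow (squares) libraries; an asterisk marks an adjusted p under 0.05. In seipin, perilipin-3, dgat2, retinol dehydrogenase 12 and factor XIII A chain some copies separate by color while others overlap, and both mlana copies separate.

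Across product families, with FPKM summed over all copies that share a product name, 2 of 11885 families passed (0.0168%), both higher in yellow: putative defense protein 3 and mlana. Both sums were below 1 FPKM in every white library and passed the filter through yellow alone, which fixed in advance that the colors did not overlap. Each holds a called gene, so these are not independent of the calls by gene. Before adjustment, p was under 0.05 for 401 families (3.37%). The families next in order were seipin, with 4.11, 5.21 and 6.41 FPKM in white and 78.4, 76.1 and 122.8 in yellow (log2 difference 3.88 ± 0.53, limma adjusted p = 0.122), then IWS1 homolog A, opsin-5, retinol dehydrogenase 12 and PMEL. The lipid enzyme Pnpla3, annotated as a 1-acylglycerol-3-phosphate O-acyltransferase, followed with 0.199, 0 and 0.0319 FPKM in white and 7.31, 8.32 and 3.63 in yellow. With the replicate block 1 family passed, putative defense protein 3 (adjusted p = 0.0014), and mlana did not (0.0667). Without brown 2 the count was 4, and it was 1 without white 1, white 2, white 3 or yellow 1, and 3 without yellow 3.

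Genes next in order of p whose colors did not overlap included several in regulation and signalling. Anaphase-promoting complex subunit 13-like LOC113092285, part of the ubiquitin ligase that drives exit from mitosis, had no read in white and 4.75, 3.48 and 14.1 FPKM in yellow (2.87 ± 0.41, limma adjusted p = 0.0944), and was called without yellow 3 (0.0342) and with TPM (0.0336). The transcription elongation protein IWS1 (LOC113058545) had 0.597, 1.21 and 1.09 FPKM in white and 5.28, 4.57 and 4.39 in yellow. Death-associated protein kinase 3-like LOC113077829 was at 0.065 ± 0.0526 FPKM in white and 1.84 ± 0.377 in yellow, and inositol polyphosphate multikinase-like LOC113069997 at 0.825 ± 0.386 and 4.5 ± 0.845. On the lower side, centrosomal protein 95 (cep95) had 5.48, 3.69 and 6.85 FPKM in white and 0.0169, 0.0942 and 1.42 in yellow (-2.16 ± 0.39, limma adjusted p = 0.259). Fatty acid activating enzyme ACSBG2-like LOC113080867 had 5.84 ± 2.48 FPKM in white and 1.25 ± 0.108 in yellow, and the chromatin methyltransferase EZH2-like LOC113048457 had 2.09 ± 0.244 and 0.353 ± 0.37.

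Some genes were on in 1 color and off in the other. At 1 FPKM or more in all 3 yellow libraries and at most 0.1 in all 3 white ones there were 16 genes (0.0215% of the 74297), of which 3 were called. They included putative defense protein 3, the chromosome 2 transcript, dgat2, mlana LOC113079820, retinol dehydrogenase 7-like LOC113060382, GTP cyclohydrolase LOC113056131, the glucose transporter, AP-2-epsilon, transporters of the SLC41 and SLC22 families and transmembrane protein 130. Cyclin-L1-like LOC113119367, a splicing-related cyclin, had 0.0223, 0.0277 and 0.0887 FPKM in white and 3.86, 3.31 and 23 in yellow. The reverse pattern was held by 3 genes (0.00404%), and none of these passed. They were AP-1 complex subunit sigma-2-like LOC113110778 (3.54, 10.4 and 4.53 FPKM in white and 0 in all 3 yellow libraries), protein tyrosine phosphatase type IVA 1 LOC113110791 (1.63, 2.43 and 1.2 in white and 0.0258, 0.024 and 0 in yellow) and a mitochondrial tRNA-Ser gene of 69 bases, whose white values rest on 2, 2 and 3 reads.

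In 7 of the 6601 families with at least 2 tested copies (0.106%), 1 copy lay above white and another below in every yellow library, each by more than 1 log2 unit. This set was defined after the values were seen, and none of its 7 sums passed. The clearest was pleckstrin homology domain-containing family J member 1 on chromosome 2. Copy LOC113112331, starting at 1946985, had 13.5, 9.91 and 6.88 FPKM in white and 0.0447, 3.9 and 0 in yellow, while copy LOC113112376, starting at 2431533, had 0.0511, 0.0636 and 0 in white and 17.3, 6.33 and 7.64 in yellow. Reads were assigned mostly to the first copy in white and mostly to the second in yellow, with yellow 2 having reads on both. The family sum was 21.6, 15.3 and 14.4 FPKM in white and 24.8, 16 and 14.3 in yellow (log2 difference 0.08 ± 0.39, limma adjusted p = 1). LOC113112331 had a limma adjusted p of 0.79. LOC113112376 had a limma adjusted p of 0.259 and was called without brown 2 (0.0418).

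The neighbouring gene, splicing factor 3A subunit 2, had the same pattern of assigned reads. Its copy LOC113112209 (start 1942508) had 6.28, 7.24 and 5.26 FPKM in white and 0.0367, 2.52 and 0 in yellow, and LOC113112372 (start 2436165) had 0.135, 0.042 and 1.01 in white and 6.89, 2.51 and 2.82 in yellow. Among the yellow libraries, yellow 2 again had both copies above 1 FPKM, and white 3 had both above 1 FPKM as well (5.26 and 1.01). On chromosome 11, puromycin-sensitive aminopeptidase had copy LOC113110775 (start 3112510) at 3.49 FPKM in white and 0.0865 in yellow on average, and copy LOC113110619 (start 31339) at 4.26 and 13.1. Protein tyrosine phosphatase type IVA 1 had LOC113110791 (start 3358845) at 1.75 and 0.0166, and LOC113110686 (start 394840) at 1.79 and 6.1. Eukaryotic translation initiation factor 4E-binding protein 3 had LOC113038679 on chromosome 21 at 8.78, 7 and 11.3 FPKM in white and 0.0886, 0.123 and 0 in yellow, with LOC113038658 on the same chromosome at 7.94 and 19.5 on average. The other 2 families were anaphase-promoting complex subunit 13 and chloride intracellular channel protein 4. How the counting shared reads among such copies was not tested.

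None of the markers of other cell types passed the test. Of 79 tested skeletal muscle genes 74 were lower on average in yellow, with a median of -2.04, yet 0 had non-overlapping libraries. Nebulin-like LOC113109269, part of the thin filament, had 1.64, 17.3 and 14.1 FPKM in white and 0.0107, 0.259 and 3.17 in yellow, so that yellow 3 lay above white 1. The muscle median was -0.91 without white 3, -0.89 without yellow 1, -3.37 without white 1 and -3.87 without yellow 3. Without the libraries numbered 3, 62 of the 79 lay below white in both remaining yellow libraries, where 20.1% of all genes did. Of the 605 genes more than 1 log2 unit lower in yellow, 62 were on the muscle list. The adipocyte list (median -0.77), Schwann cells and neurons (-0.60), endothelium (-0.23) and dermal fibroblasts and scale-forming cells (-0.17) also had medians below 0. They had 0, 0, 1 and 0 members below white without overlap (4.56% of all genes). Leaving out white 2 turned the direction for dermal cells (0.14) and endothelium (0.04), endothelium was also above 0 with a filter at 5 FPKM (0.27), and the Schwann cell and neuron median moved to -0.17 without white 3 and -1.05 without white 1. Myelin protein P0-like LOC113045081 had 10.4, 28.3 and 39.6 FPKM in white and 6.86, 10.1 and 12.3 in yellow, and decorin-like LOC113065466, a dermal matrix gene, 119.5, 279.1 and 171.3 in white and 118.2, 140.2 and 69.4 in yellow. The part of muscle and dermal content in the color difference was not tested; with the mean level of the muscle list as a covariate, limma called 9 genes higher and 1 lower, and the factor XIII A copies LOC113042211 and LOC113042740 and the opsin-5-like gene LOC113098145 were not called (adjusted p = 0.0668, 0.068 and 0.0709).

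Epidermal genes lay mostly on the higher side in yellow, and 0 passed. Of 54 tested keratinocyte genes 39 were higher on average, the median was 0.50, and 6 lay above white and 0 below without overlap (5.06% and 4.56% of all genes). The median depended on single libraries, at 0.20 without white 2, 0.84 without white 1 and 0.81 without yellow 3. Plakophilin-3-like LOC113043550, a desmosome protein, had 47.9, 8.68 and 27.2 FPKM in white and 85.4, 138.4 and 57.6 in yellow (1.91 ± 0.62, limma adjusted p = 1), and white 2 was the lowest. Plakophilin-1-like LOC113050148 and plakophilin-2-like LOC113065354 also separated by color, at 2.73 ± 1.75 and 11.1 ± 7.08 FPKM and at 1.08 ± 0.633 and 5.34 ± 2.7. Mucous cell genes had a median of 0.47 over 12 members, which was -0.00 with the muscle covariate, 0.01 without a filter, 0.19 without white 2, 0.24 without white 3, 0.26 without yellow 1, 0.30 without yellow 2, 0.88 without yellow 3 and 1.00 without white 1. Mucin-5AC-like LOC113047152 was at 3.11 ± 0.919 FPKM in white and 8.27 ± 4.33 in yellow. White 2 had the lowest keratinocyte mean, 3.76 in log2(FPKM + 1), beside 4.79 and 3.97 in white 1 and 3, while yellow 1, 2 and 3 had 4.98, 5.13 and 4.09. The same library had the highest share of dermal reads, 15% beside 1.97% to 10.6% in the others. The part of these shares in the epidermal difference was not tested.

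Interferon response genes lay mostly on the higher side in yellow. Of 43 tested members 38 were higher on average in yellow, 14 lay above white and 0 below without overlap (5.06% and 4.56% of all genes), and 0 passed. The mean log2 level was 2.54, 1.93 and 2.03 in white and 2.79, 2.71 and 2.64 in yellow, and the median difference was 0.51. That median was 0.26 over 85 members without a filter, 0.32 with the muscle covariate, 0.37 without white 2 and 0.70 without white 1. Mx-like LOC113043304, an antiviral GTPase, had 2.04, 0.183 and 3.21 FPKM in white and 4.73, 11 and 9.02 in yellow (1.84 ± 0.58, limma adjusted p = 1). Interferon-induced protein 44-like LOC113119413 had 8.62, 5.53 and 3.43 in white and 16.2, 14.5 and 15.8 in yellow. Among 17 immune cell genes, an immunoglobulin kappa light chain-like gene (LOC113053150) was at 0.646 ± 0.333 FPKM in white and 3.38 ± 1.31 in yellow, and lysozyme C-like LOC113066219 went the other way, at 3.02, 10.2 and 12 in white and 2.62, 1.15 and 0.636 in yellow. The immune list as a whole had 3 members above and 1 below without overlap (5.06% and 4.56% of all genes). Its median was 0.36, and -0.03 without a filter.

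Erythrocyte, ionocyte, metabolic, cell cycle and stress lists held 0 called genes. Hemoglobin subunit alpha (LOC113049502) was at 91.8, 127.5 and 956 FPKM in white and 186.4, 301.9 and 2140 in yellow, so the libraries numbered 3 were far above the others in both colors. Among 38 glycolysis genes the median was -0.14, with 3 above white and 1 below without overlap (5.06% and 4.56% of all genes). Aldolase C, the brain form in mammals, was above white at both tested copies, LOC113070062 (21 ± 4.27 and 64.3 ± 15.3 FPKM) and LOC113038164 (5.6 ± 1.48 and 11.9 ± 2.29). So was hexokinase-1 (LOC113057139, 1.67 ± 0.501 and 3.25 ± 0.489). Of 27 tested cell cycle genes, 0 lay above white and 2 below without overlap, beside the same shares of all genes. Replication licensing factor mcm7 lay below white at 2 copies, LOC113088891 (1.31 ± 0.198 and 0.458 ± 0.459) and LOC113114374 (3.77 ± 1.03 and 1.87 ± 1.39). Immediate early genes, which respond within minutes to handling, were split. Of 29 tested immediate early and heat shock genes, 4 lay above white and 3 below without overlap (5.06% and 4.56% of all genes). The list median was -0.001. The fosB-like gene LOC113061674 had 44.9, 18 and 19.1 FPKM in white and 6.87, 13.8 and 5.62 in yellow, egr1-like LOC113069578 had 34.5, 27.1 and 25.4 in white and 17, 16 and 12.8 in yellow, and fra-1-like LOC113113328 lay above white, at 0.532 ± 0.175 and 3.07 ± 0.985.

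**Figure D5:**
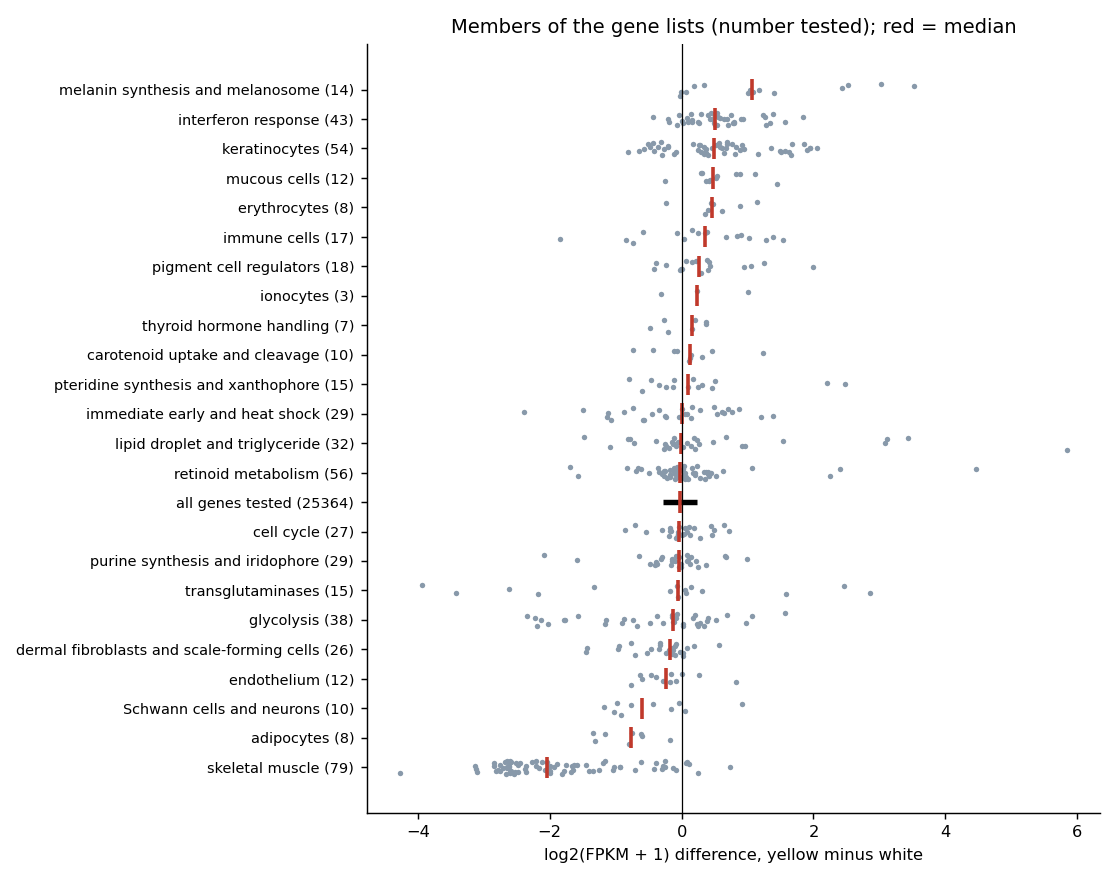
Difference between yellow and white skin in log2(FPKM + 1) for each tested member (grey points) of the 23 lists with at least 3 tested genes, with the list median in red; the black bar is the interquartile range of all 25364 tested genes. The melanosome list has the highest median (1.06) and skeletal muscle the lowest (-2.04), and the lipid droplet, retinoid and transglutaminase lists have medians near 0 with a few members far out.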

How the data were processed

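The authors deposited 1 table per library with FPKM per gene, position, length, product name and a protein family label. The kit was SMARTER mRNA-Seq, per the labels' protocols, and the submitters' processing notes list HISAT2 and StringTie. The sources used here do not give the build, the strand setting or the treatment of multi-mapping reads. Gene IDs matched RefSeq assembly ASM336829v1 for 72068 rows, 72059 with the same start, and chromosome numbers are taken from it; 2229 further rows are unnamed transcripts.

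In each library, FPKM multiplied by length was a whole multiple of a constant for 100% of nonzero values (tolerance 0.001), which gave the read numbers. A read on a gene of 1 kilobase was worth 0.0448 to 0.0891 FPKM in the 6 libraries, so lower values rest on few reads. The denominators were 0.689 to 1.39 times the reads on genes. Median-of-ratios size factors were equal in all libraries, so scaling by them divided every value by 1 constant. No pair of libraries of a color was a copy (smallest chi-square per gene 19.1).

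The test was limma-trend 3.58.1 (R 4.3.3) on log2(FPKM + 1) with all 9 libraries, color as the only term and Benjamini-Hochberg adjustment at 0.05 over 25364 genes with at least 1 FPKM in 3 of the 6 libraries. Differences on this scale understate the change of low genes. A gene below 1 FPKM in every library of 1 color passed the filter only through the other color. Such a gene could not overlap between the colors. The same fit was run on 11885 product families. The test was also run on simulated data, with the same spread for all genes and no muscle difference between libraries. That setting is unlike these libraries, so the run does not bear on the calls reported here. SD is over 3 libraries a color. The SE of a difference comes from the limma spread estimate, pooled over all 9 libraries and moderated across genes. P-values measure the difference against that spread. Levels are compared within a gene.

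Deviations of white and yellow libraries with the same number correlated at 0.22 to 0.778, and those with other numbers at -0.704 to 0.530. For brown, pairs with the same number correlated at -0.232 to 0.411 with white and -0.300 to 0.474 with yellow. The labels do not say that the numbers pair libraries. A fit with the number as a block was also run, and its values are given where they change a call. Alternatives covered pseudocount, filter, TPM, size factors, the 6 libraries alone, the block, a muscle covariate, voom on recovered reads and leaving out libraries. The 6 libraries with the block were added after seeing the data.

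Named genes are those called, the next 8 in each direction by p without overlap, up to 5 genes on in 1 color, up to 3 members of each of 24 lists, and pigment gene sums. Others are named where a family, list or neighbour is described, after their values were seen. The comparison and the lists were chosen with earlier results of these data known, and list patterns by product name were corrected on the files.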

Additional observations from a re-analysis of the deposited data

How the results depend on the processing

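The count of called genes, 12 in the reported fit, was 6 without a filter, 5 with a filter at 5 FPKM, 6 with the replicate block, 5 without the libraries numbered 3 and 0 with voom, where 799 genes had an unadjusted p under 0.05. It was 12, 11, 9, 9 and 10 with a pseudocount of 0.1, a pseudocount of 0.5, TPM, the 6 libraries alone and the muscle covariate. Median-of-ratios scaling also gave 12, but its factors were equal in all libraries, so it could hardly change a call. With any 1 library left out it ranged from 2 (without white 2) to 12. The replicate block kept 6 of the 12 genes, all higher in yellow, and changed no other call of a named gene; with the 6 libraries alone and the block, chosen after seeing the data, 12 genes were called, of which 7 were among the 12. The count of families, 2, was 1 without a filter, with the block and without the libraries numbered 3, 0 with voom (366 at an unadjusted p under 0.05), 5 with the 6 libraries and the block, and 1 to 4 with any 1 library left out. All 12 called genes kept their direction in every alternative in which they were tested. Their libraries did not overlap between the colors, so leaving out libraries or changing the pseudocount or filter could not turn the direction. Of the named genes, 2 changed direction when 1 library was left out, and neither passed. The ionocyte gene foxi1c-like LOC113057062 (-0.32) ranged from -0.62 to 0.13, above 0 without white 1 and without yellow 3 (0.099), and the erythroid aminolevulinate synthase gene LOC113100310 (0.35) from -0.023 without yellow 3 to 0.68. The causes were not tested. With the muscle covariate the list medians were -0.06 for carotenoid genes, -0.14 for pteridine genes, -0.10 for immune cells, -0.00 for mucous cells and 0.16 for glycolysis, each of the opposite sign to the reported median, and the pteridine median was also below 0 with a pseudocount of 0.1 (-0.13). Leaving out 1 white or yellow library also turned the sign of several list medians. They ranged from -0.10 to 0.19 for pteridine genes, -0.06 to 0.25 for carotenoid genes and -0.07 to 0.12 for lipid droplet genes. The range was -0.10 to 0.06 for retinoid genes, -0.16 to 0.19 for purine genes and -0.24 to 0.21 for transglutaminases. For cell cycle genes it was -0.36 to 0.22, and for immediate early and heat shock genes -0.17 to 0.12. Thyroid hormone genes ranged from -0.03 to 0.29, and erythrocyte genes from -0.22 (without yellow 3) to 1.23 (without white 3). The dermal and endothelium medians turned without white 2, as given above. Depth limits values near 0, which rest on few reads.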

Other observations

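The AP-1 complex subunit sigma-2-like gene and the protein tyrosine phosphatase type IVA 1 copy that were off in yellow lie close together on chromosome 11, and the tested genes around them were listed after this was seen. Among the 18 tested genes that start between 3031609 and 3414316, 7 lay below white in all yellow libraries and 3 above (4.56% and 5.06% of all genes). The AP-1 and phosphatase genes around which the stretch was set are among the 7. The median difference was -0.26, and 0 passed. Mitochondrial ribosomal protein L45-like LOC113110777 had a log2 difference of -1.73 ± 0.45, puromycin-sensitive aminopeptidase LOC113110775 -2 ± 0.54, AP-1 sigma-2-like LOC113110778 -2.72 ± 0.58, the unnamed gene LOC113110556 -1.65 ± 0.43 and phosphatase LOC113110791 -1.41 ± 0.43 (SE). The muscle gene myomesin-2-like LOC113110788, in the same stretch, was at -3.99 ± 1.43. AHNAK-like LOC113110770 at the start of the stretch lay the other way, at 2.04 ± 0.45. Between them, histone-binding protein RBBP7-like LOC113110780 and gamma-taxilin-like LOC113110779 overlapped between the colors, at -0.39 ± 0.40 and -0.23 ± 0.30.

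Brown 2 went with the yellow libraries at these genes while brown 1 and brown 3 went with white. LOC113110777 was at 0.235 FPKM in brown 2 and at 2.67 and 3.58 in brown 1 and 3, LOC113110775 at 0.0591 and at 3.07 and 4.39, and LOC113110778 at 0 and at 3.57 and 3.46. LOC113110556 was at 0.016 in brown 2 beside 2.58 and 2.05, and LOC113110791 at 0.067 beside 2.16 and 2.54. At the 4E-binding protein 3 copy LOC113038679, on chromosome 21, brown 2 was also at 0, with 8.41 and 27.7 FPKM in brown 1 and 3. At the copies on chromosome 2 with opposite differences, yellow 2 and brown 2 had both copies above 1 FPKM. White 3 did so too at splicing factor 3A subunit 2. Pleckstrin homology family J member 1 was at 2.49 (LOC113112331) and 1.99 FPKM (LOC113112376) in brown 2, beside 0.203 and 10.7 in brown 1 and 0 and 16.7 in brown 3. These levels separated single libraries within a color as well as the colors. Whether sequence differences between the fish and the reference moved reads between copies was not tested, as the files hold no reads.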
